A study of Mus musculus with 194 samples.

Results

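G2 and mitosis genes are the genes whose products carry a cell from the end of DNA replication through chromosome segregation to the separation of the daughters. The set examined here holds 47 of the 23420 gene rows measured, a list fixed by symbol in 10 roles, from the cyclins and their kinase Cdk1 to cytokinesis. All 47 symbols were found, and all 47 passed the filter on low expression in both cell types, which asked for ln(TPM + 1) above 1 in over 10% of its cells (TPM is a gene's share of the transcripts of a library after correction for gene length, scaled to a sum of 1000000). Single cells were grown in a microfluidic array of hydrodynamic traps, followed under the microscope so that the time since division and the pedigree of each cell were known, flushed out one at a time and turned into Smart-Seq2 libraries. L1210 cells (ATCC CCL-219, strain label DBA subline 212) are an established murine line of lymphocytic leukemia that needs no stimulus to divide, and all cells come from this one line. The CD8+ T-cells were primary cells from the spleens of several C57BL/6J mice, activated for 30 h with antibodies against CD3 and CD28 before loading and then grown in the device with 100 U/mL IL2. The labels do not tie a CD8+ T-cell to a mouse, so donor and lineage cannot be told apart.

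In a dividing cell, the cyclins A2 and B bind and activate Cdk1, which drives entry into mitosis, and Aurora and Polo-like kinases build the spindle. The anaphase-promoting complex, first with Cdc20 and then with Fzr1 as its activator, marks cyclins and other mitotic proteins for destruction, and the spindle midzone and the contractile ring then divide the cell. Transcripts of this program accumulate in late S phase and G2 and are inherited by the daughters, so a newly divided cell can hold messages that were made before it was born.

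Of 88 L1210 libraries, 2 came from doublets and 5 had fewer than 1000 genes above 0 TPM, which left 81 cells of 26 lineages, all with a labelled time since division. Of the CD8+ T-cell libraries, 4 were doublets and 5 fell below the limit, which left 97 cells of 34 lineages, 94 of them with a time. Genes above 0 TPM numbered 1610 to 10454 in L1210 cells (median 8402) and 2639 to 10905 in CD8+ T-cells (median 6862), and neither the read depth of a library nor the amount of RNA in a cell can be read from TPM. Cells were grouped by time since division as newborn (under 2 h, 15 L1210 cells of 5 lineages and 14 CD8+ T-cells of 6), mid (2 to under 6 h, 38 cells of 12 lineages and 54 of 17), 6 to 8 h (10 cells of 5 and 19 of 7) and late (8 h or more, 18 cells of 9 and 7 of 2). Only 2 lineages stand behind every late CD8+ T-cell value. Cd3e, the defining T-cell receptor subunit, was above 0 in all 97 CD8+ T-cells (median 571 TPM) and in 0 of the 81 L1210 cells. Cd8a was above 0 in 94 CD8+ T-cells. In L1210 cells it was above 0 in 10, at 9.74 TPM at most.

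The promoters of 42 members were matched to RefSeq windows of GRCm38.p6 that run from 250 bases before to 50 bases after the start of transcription. Tpx2, Kif20a, Aurkb, Ccna2 and Depdc1b had no match. The hexamer TTTGAA, the core of the element known as the cell cycle genes homology region, was searched on both strands (as TTTGAA or TTCAAA) and lay in 32 of the 42 windows (76.2%), against 18.1% of the windows of all 27025 genes. CCAAT, also on both strands (CCAAT or ATTGG), lay in 34 of 42 (80.95%), against 37.9%, and both motifs together lay in 28 (66.7%), against 7.12%. In 30 of the 32 windows with the hexamer, its most downstream copy began no more than 60 bases before the start site or lay after it. The share over all promoters was not computed for this position. A match of letters is a description of the window and not a binding site. The 6 promoters printed here hold both motifs and were chosen after their values were seen, because the time course of each, described further on, passed the test in CD8+ T-cells: Cdc20 and Ccnb2, whose highest medians were in newborn CD8+ T-cells or stood close to the later ones, and Kpna2, Prc1, Top2a and Cdk1, whose lowest were. Each stretch runs 5′ to 3′ on the gene's own strand from 120 bases before to 30 bases after the start, with both motifs in capitals.

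Cdc20 (chr4:118437314-118437463, minus strand): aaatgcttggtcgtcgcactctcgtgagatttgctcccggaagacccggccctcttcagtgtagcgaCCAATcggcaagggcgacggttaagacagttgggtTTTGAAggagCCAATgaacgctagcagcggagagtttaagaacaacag
Ccnb2 (chr9:70421525-70421674, minus strand): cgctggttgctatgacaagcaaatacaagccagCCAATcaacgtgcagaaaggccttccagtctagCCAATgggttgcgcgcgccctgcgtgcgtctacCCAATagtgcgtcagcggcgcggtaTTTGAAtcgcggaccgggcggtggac
Kpna2 (chr11:106999496-106999645, minus strand): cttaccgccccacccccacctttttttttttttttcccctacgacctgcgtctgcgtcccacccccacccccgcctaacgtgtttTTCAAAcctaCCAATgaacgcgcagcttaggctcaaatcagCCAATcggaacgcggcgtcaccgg
Prc1 (chr7:80294331-80294480, plus strand): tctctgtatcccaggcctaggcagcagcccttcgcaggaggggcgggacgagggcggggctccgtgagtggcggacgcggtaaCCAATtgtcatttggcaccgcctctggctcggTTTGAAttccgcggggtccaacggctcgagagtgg
Top2a (chr11:99024160-99024309, minus strand): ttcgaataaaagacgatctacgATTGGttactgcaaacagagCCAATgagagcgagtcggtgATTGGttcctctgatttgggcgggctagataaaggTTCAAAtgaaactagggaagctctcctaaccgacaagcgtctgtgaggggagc
Cdk1 (chr10:69352883-69353032, minus strand): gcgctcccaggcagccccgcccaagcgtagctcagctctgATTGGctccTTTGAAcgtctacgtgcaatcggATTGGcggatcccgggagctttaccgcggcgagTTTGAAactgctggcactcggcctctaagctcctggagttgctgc

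Prc1 had 1 of each in this stretch, and the other 5 had at least 1 hexamer and 2 or more copies of CCAAT.

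To follow the set as a whole, log2(TPM + 1) was averaged over the 47 genes in each cell. In CD8+ T-cells this mean level ran from 2.51 to 6.04 (median 4.13) in newborn cells, from 2.37 to 6.87 (median 5.19) at 2 to 6 h, from 3.70 to 6.97 (median 6.01) at 6 to 8 h and from 2.21 to 6.46 (median 5.83) at 8 h or more. The medians stepped up to 6 to 8 h, while the ranges of all windows overlapped widely. In L1210 cells the same quantity ran from 3.15 to 6.07 (median 4.61) in newborn cells, from 2.14 to 5.92 (median 4.15) at 2 to 6 h, from 3.67 to 6.58 (median 5.58) at 6 to 8 h and from 0 to 6.82 (median 5.05) at 8 h or more. The lowest median in L1210 cells was therefore that of mid cells and not that of newborn cells. A newborn L1210 cell had 23 to 47 of the 47 genes above 0 (median 42) and a mid cell 17 to 47 (median 38.5), and in CD8+ T-cells these numbers were 22 to 47 (median 37) and 21 to 47 (median 44).

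**Figure D1:**
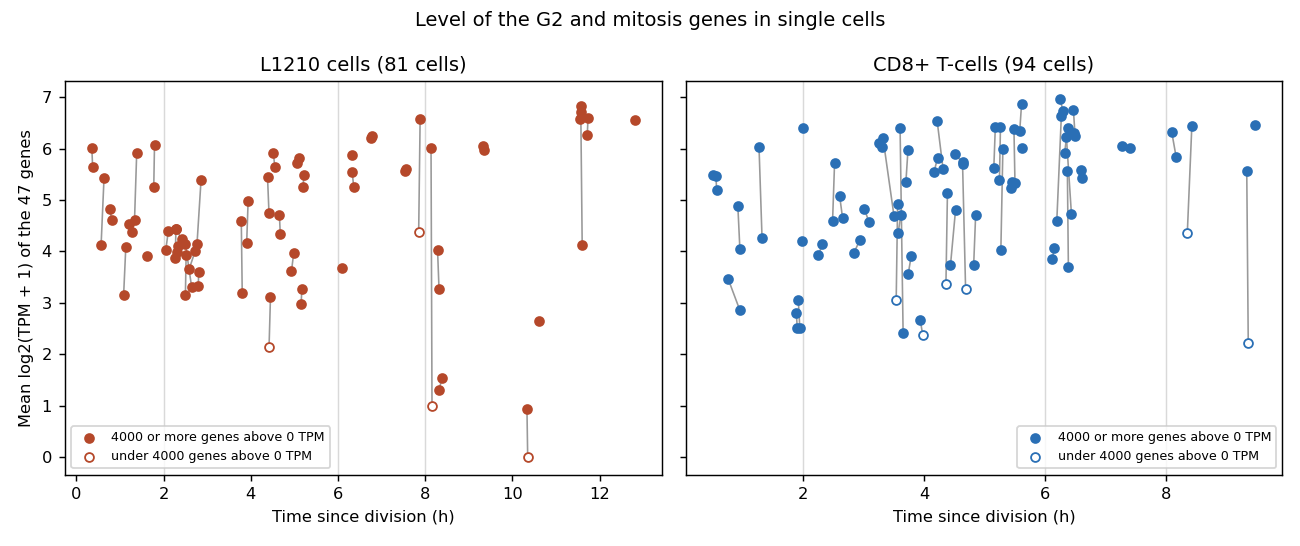
Mean log2(TPM + 1) of the 47 genes in each cell (y axis) against its labelled time since division in h (x axis), for 81 L1210 cells and 94 CD8+ T-cells; lines join sisters, open points are cells with under 4000 genes above 0 TPM, and vertical lines stand at 2, 6 and 8 h. CD8+ T-cell medians go from 4.13 in newborn cells to 6.01 at 6 to 8 h, and late L1210 cells part into cells from 5.97 to 6.82 and cells from 0 to 4.13.

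The late L1210 cells did not form 1 group. The cells of lineages 12, 55, 63 and 78 (a lineage is named here by its lowest cell number) had lineage means between 6.01 and 6.65, with Kpna2, which carries nuclear proteins and the spindle factor Tpx2 into the nucleus, at 461 to 1020.2 TPM in every one of their cells. In lineage 8 (10.3 h), cell 8 had none of the 47 genes above 0, and its sister, cell 84, had 7, with lineage mean 0.47. In lineage 54 (8.28 to 8.38 h) the mean level was 1.30 and 1.53 in the sisters 54 and 86 and 4.02 and 3.26 in the sisters 65 and 76, although Kpna2 stood at 245 to 423 TPM in all 4 cells. Cell 52 of lineage 41 (10.6 h) had a mean level of 2.64, with 333 TPM of Kpna2 and 1.90 TPM of Top2a. Cells 8 and 84 had 2718 and 4951 genes above 0 TPM. The ribosomal RNA gene Rn45s took 79.3% of the TPM in cell 8 and 27.4% in cell 84, against a median of 21.9% over the L1210 cells. In lineage 54, cell 86 had 5126 and the other 3 had 8651 to 8821. Cell 52 had 9622, and the 4 high lineages had 8611 to 10454. Lineages 3 and 77 were split between sisters and are taken up with the sister pairs. Cdkn1a, an inhibitor of cyclin-dependent kinases, was highest in cell 3 of lineage 3 (166 TPM), where the mean level of the set was 6.02. It was at 89.8 TPM in cell 52, at 0 and 30.6 TPM in the cells of lineage 8, at 0 to 18.1 TPM in lineage 54 and at 0 to 30.2 TPM in the 4 high lineages. Whether Cdkn1a, the share of Rn45s or the number of genes above 0 has a part in the low levels was not tested.

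Each member was then tested for any course over time with a natural spline of hours since division (3 degrees of freedom) in limma, with cells of a lineage treated as correlated and p-values adjusted by Benjamini-Hochberg over every gene in the fit. In CD8+ T-cells 11 of 47 members passed an adjusted p of 0.05, where 74 of all 9997 genes did (0.74%). In L1210 cells 0 of 47 passed, where 2 of all 10536 genes did (0.019%). At an unadjusted p under 0.05 stood 24 members in L1210 cells and 28 in CD8+ T-cells, against 439 (4.17%) and 1291 (12.9%) of all genes. In 2 contrasts of windows, newborn minus mid cells gave 7 called members in CD8+ T-cells, all 7 lower in newborn cells (percent of all genes called 0.21, and 0.18 lower). In L1210 cells it gave 0, where no gene was called (0% of 10536, with 5 members and 2.52% of all genes at an unadjusted p under 0.05). Late minus mid cells gave 0 called members in CD8+ T-cells (126 of 9997 genes, 1.26%, of which 1.15% lower and 0.11% higher in late cells, with 2 members and 15% of all genes at an unadjusted p under 0.05). The same contrast gave 0 in L1210 cells (0% of 10536, with 11 members and 10.7% of all genes at an unadjusted p under 0.05). Altogether 36 members passed none of these tests in either type, and the other 11 are those of the CD8+ T-cell course. The values below give the lowest and highest cell of a window with the median, beside it the median of a later window not given in full, and all differences are in log2(TPM + 1), with the standard error of the fit.

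**Figure D2:**
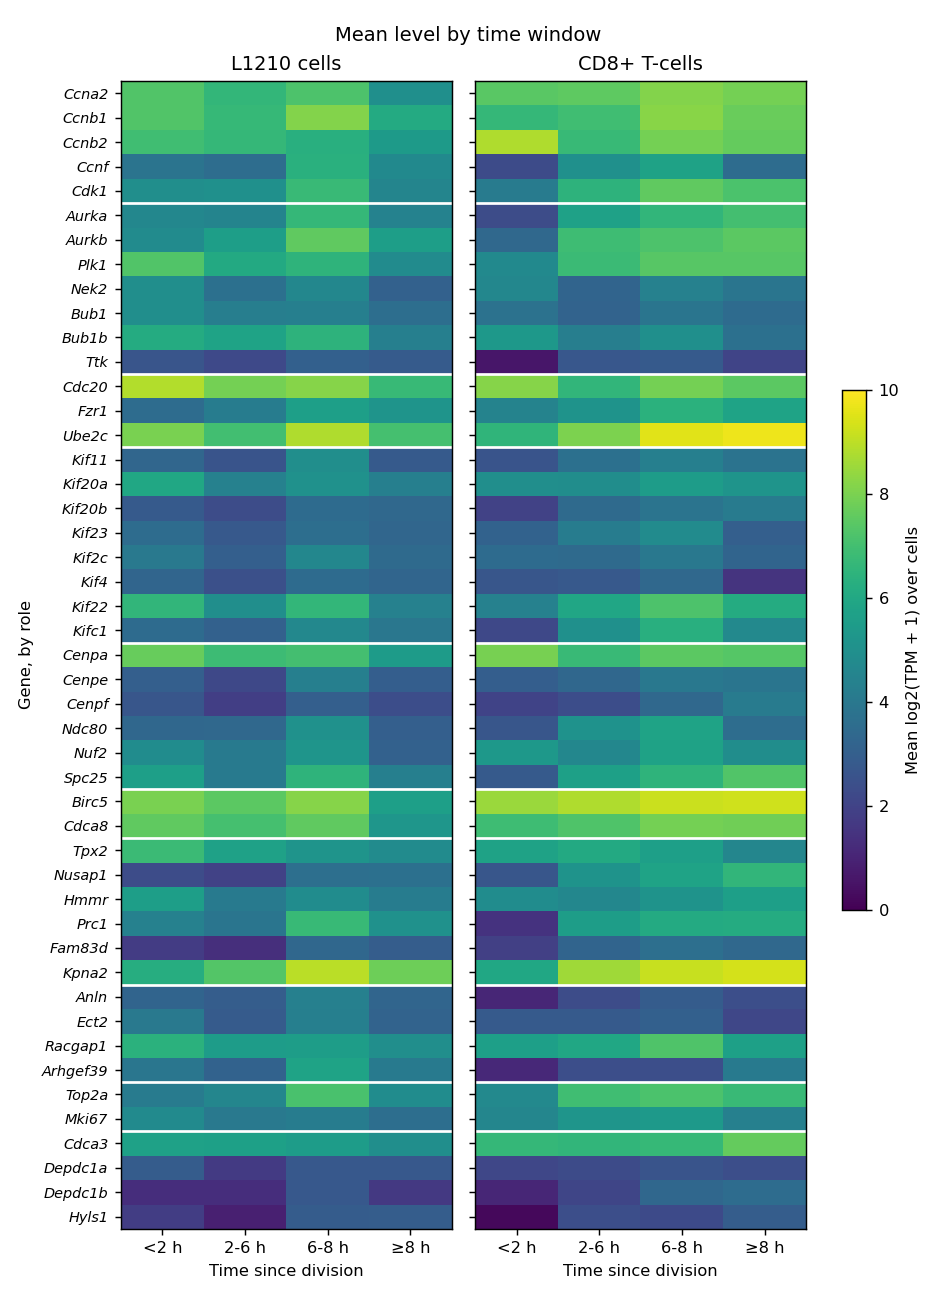
Mean log2(TPM + 1) over the cells of each time window (colour, 0 to 10) for the 47 genes (rows, grouped by role, white lines between roles) in L1210 cells and CD8+ T-cells (columns: under 2 h, 2 to 6 h, 6 to 8 h, 8 h or more). In CD8+ T-cells Prc1, Aurka, Aurkb and Spc25 are dark under 2 h and bright after, while Ccnb2 and Cenpa are brightest under 2 h. The late mean of Cenpa includes cell 7 at 0, and its late median (393 TPM) is above the newborn one (262 TPM).

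Among the cyclins and Cdk1, 2 of 5 members changed over time in CD8+ T-cells. Ccnb2, a B-type cyclin that partners Cdk1, ranged over 151 to 1012 TPM (median 457) in newborn CD8+ T-cells, over 0 to 522 TPM (median 159.8) in mid cells and over 13.2 to 685 TPM (median 256, and 239 at 6 to 8 h) in late cells (course, adjusted p = 0.00928). Newborn cells were high and mid cells lower, with overlapping ranges, and the newborn minus mid difference of 2.05 ± 0.52 just missed the threshold (adjusted p = 0.0506). Cdk1, the kinase of mitotic entry, took the opposite way, with 0 to 129 TPM (median 29.9) in newborn, 0 to 307 TPM (median 122) in mid and 10.5 to 368 TPM (median 220.2, and 194 at 6 to 8 h) in late cells (course, adjusted p = 0.00126). Newborn cells were lower than mid cells, with a newborn minus mid difference of -2.25 ± 0.51 (adjusted p = 0.0192). In newborn CD8+ T-cells the median, per length, was 457 TPM for Ccnb2 and 29.9 TPM for Cdk1. Ccnb1, the other B-type cyclin, was at 0 to 268 TPM (median 149.5) in newborn, 0 to 650.1 TPM (median 144) in mid and 45.5 to 854 TPM (median 330.3, and 359 in late cells) in 6 to 8 h CD8+ T-cells (course, adjusted p = 0.117). In L1210 cells Ccnb2 was at 41.4 to 256 TPM (median 110.0) in newborn and 22.4 to 294 TPM (median 100.1, 99.5 at 6 to 8 h and 93 in late cells) in mid cells, a difference of 0.22 ± 0.51. Ccna2, cyclin A2, had 73.7 to 222 TPM (median 163) in newborn, 18.9 to 249.6 TPM (median 111) in mid and 0 to 268 TPM (median 91.6, and 154 at 6 to 8 h) in late L1210 cells, and in late cells it was at 0 in 5 of 18 (late minus mid -1.61 ± 0.50, adjusted p = 0.213). Ccnf, the substrate receptor of a ubiquitin ligase, was at 0 to 100.1 TPM (median 19.7) in newborn, 0 to 101.9 TPM (median 21.1) in mid and 36.7 to 220.4 TPM (median 78.8, and 74.6 in late cells) in 6 to 8 h L1210 cells (unadjusted course p = 0.0191, adjusted p = 0.999).

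Of the 7 mitotic kinases and checkpoint genes, Aurka and Aurkb changed over time in CD8+ T-cells. Aurkb, the kinase of the chromosomal passenger complex, was at 0 to 176 TPM (median 7.19) in newborn, 0 to 539.6 TPM (median 166) in mid and 10.3 to 511 TPM (median 286, and 183 at 6 to 8 h) in late CD8+ T-cells, and above 0 in 10 of 14 newborn cells (course, adjusted p = 0.00126). The newborn minus mid difference was -3.56 ± 0.62 (adjusted p = 0.000332), and within the first 4 h Aurkb rose by a fitted slope of 1.51 ± 0.29 per hour (adjusted p = 0.00537). Aurka, which matures centrosomes, was at 0 to 95.3 TPM (median 1.39) in newborn, 0 to 680.5 TPM (median 88.6) in mid and 21.2 to 266 TPM (median 172, and 146 at 6 to 8 h) in late cells (newborn minus mid -3.43 ± 0.71, adjusted p = 0.00579). In L1210 cells the newborn and mid medians of Aurkb were 47.1 and 50.2 TPM, and those of Aurka 51.3 and 32.8 TPM. At 6 to 8 h and in late L1210 cells these medians were 202 and 153 TPM for Aurkb, and 109 and 71 TPM for Aurka. Plk1, the Polo-like kinase that acts from mitotic entry to cytokinesis, stood at 69.5 to 340.0 TPM (median 136) in newborn, 0 to 259 TPM (median 101.005) in mid and 0 to 377 TPM (median 175, and 173 at 6 to 8 h) in late L1210 cells. Values of Plk1 were 0 to 314 TPM (median 40.1) in newborn and 0 to 476 TPM (median 139, 221 at 6 to 8 h and 270.2 in late cells) in mid CD8+ T-cells. The fitted newborn minus mid difference of Plk1 was 1.199 ± 0.72 in L1210 cells and -1.98 ± 0.62 in CD8+ T-cells, and neither passed (adjusted p = 1 and 0.181). Nek2, a kinase that separates centrosomes, and Bub1b, a checkpoint kinase that restrains Cdc20, had higher newborn than mid medians in both types. Nek2 was at 3.33 to 120.3 TPM (median 31.8) in newborn and 0 to 87 TPM (median 20.6, 23.2 at 6 to 8 h and 32.5 in late cells) in mid L1210 cells, with medians of 43.7, 13.3, 39.6 and 13.1 TPM over the 4 windows of CD8+ T-cells. Bub1b was at 34.9 to 112 TPM (median 69.7), 0 to 172 TPM (median 62.9) and 0 to 177 TPM (median 66.1, and 82.6 at 6 to 8 h) in newborn, mid and late L1210 cells, with medians of 63.5, 28.4, 43.3 and 24.7 TPM over the 4 windows of CD8+ T-cells. No newborn minus mid difference of either gene passed (adjusted p from 0.595 to 1). Bub1 and Ttk, checkpoint kinases as well, passed no test over time.

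In the group of the anaphase-promoting complex the activator Cdc20 and the ubiquitin-conjugating enzyme Ube2c changed over time in CD8+ T-cells. Cdc20 was at 87.4 to 661 TPM (median 319) in newborn, 0 to 583 TPM (median 126) in mid, 2.63 to 584 TPM (median 372) in 6 to 8 h and 0 to 1124 TPM (median 342) in late CD8+ T-cells (course, adjusted p = 0.00833). It was above 0 in every newborn cell, fell over the first 4 h with a fitted slope of -1.59 ± 0.27 per hour on the log2 scale (adjusted p = 0.000957), and its 6 to 8 h median was above the newborn one. Together with Aurkb and Top2a it was 1 of 3 members called for a slope under 4 h in CD8+ T-cells, where 0.19% of 9997 genes were (0.09% with a positive and 0.1% with a negative slope), and the only one of the 3 that fell. In newborn L1210 cells Cdc20 was at 259 to 669 TPM (median 454), in mid cells at 50.7 to 808 TPM (median 282) and in late cells at 0 to 686 TPM (median 249, and 285 at 6 to 8 h). The slope in L1210 cells was -0.36 ± 0.11 per hour with an unadjusted p of 0.00197 (adjusted p = 1), and no gene was called for it in L1210 cells (0% of 10536, with 13 members and 2.33% of all genes at an unadjusted p under 0.05). Ube2c was at 0 to 556 TPM (median 148) in newborn, 0 to 1425 TPM (median 459) in mid and 11.1 to 2344 TPM (median 1632, and 1047 at 6 to 8 h) in late CD8+ T-cells (course, adjusted p = 0.00908). In L1210 cells it was at 40.2 to 463 TPM (median 253) in newborn, 0 to 607 TPM (median 142) in mid and 62.6 to 984 TPM (median 639.8, and 286 in late cells) in 6 to 8 h cells, the lowest median in mid cells (course, adjusted p = 0.999). Fzr1, the activator that takes over from Cdc20 at mitotic exit, was at 0 to 191 TPM (median 39.4) in newborn, 0 to 438 TPM (median 64.4) in mid and 0 to 390.1 TPM (median 132, and 59.5 in late cells) in 6 to 8 h CD8+ T-cells. Fzr1 ranged over 0 to 71 TPM (median 28.7) in newborn, 0 to 113 TPM (median 26.8) in mid and 0 to 381 TPM (median 53.1, and 72.8 in late cells) in 6 to 8 h L1210 cells. It passed no test over time.

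**Figure D3:**
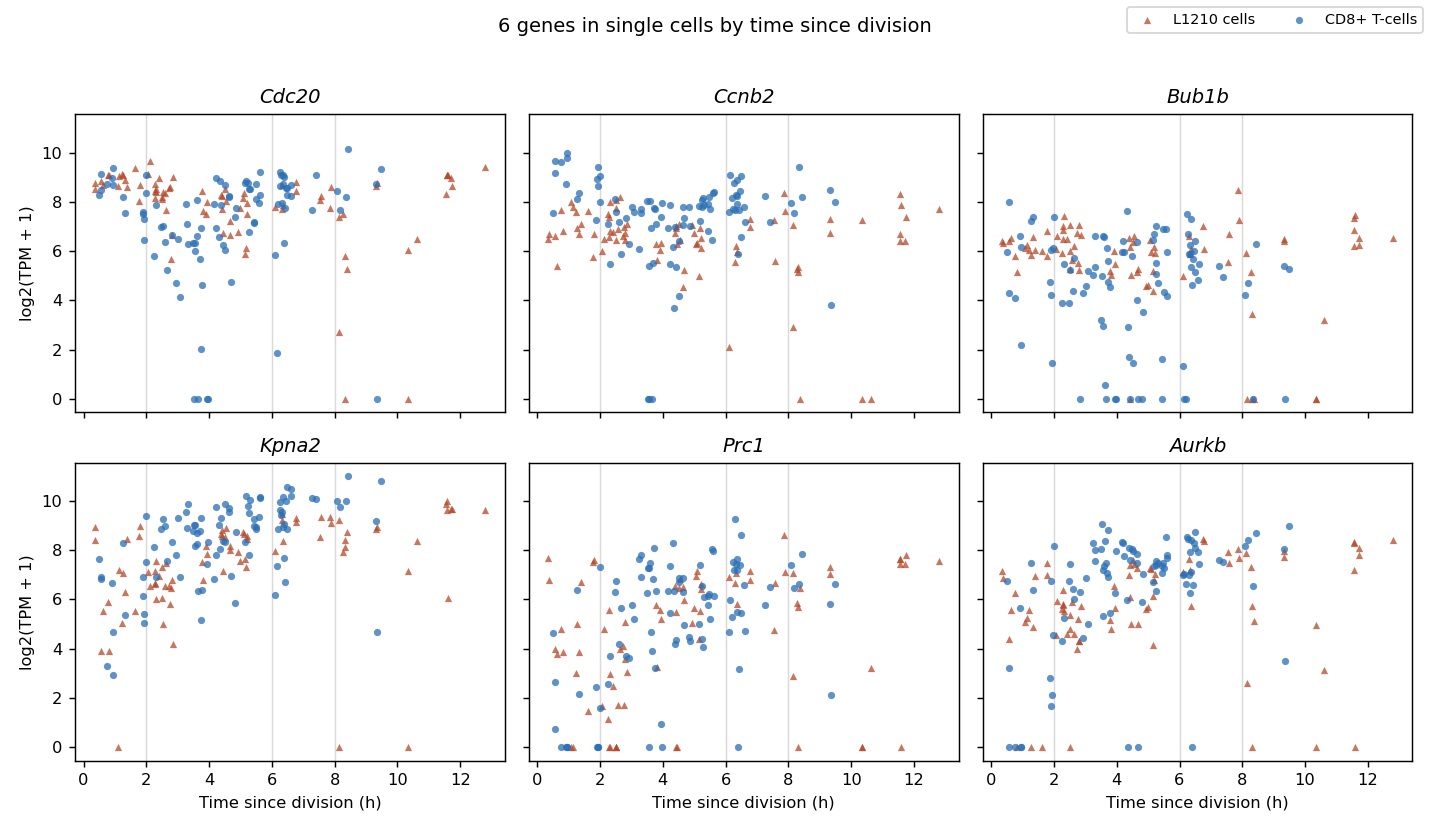
log2(TPM + 1) of 6 genes (panels) in each cell against time since division in h, L1210 cells as triangles and CD8+ T-cells as circles, with vertical lines at 2, 6 and 8 h. In the upper row the newborn CD8+ T-cells sit at or above the level of mid cells (Cdc20 median 319 against 126 TPM), and in the lower row below it (Prc1 median 0.335 against 69.2 TPM).

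None of the 8 kinesins, the motors that build the spindle and its midzone, passed a test over time in either type. The nearest in CD8+ T-cells was Kifc1, a motor that bundles microtubules towards the poles, at 0 to 91.8 TPM (median 1) in newborn, 0 to 236 TPM (median 48.4) in mid and 1.51 to 317 TPM (median 101.2, and 46.9 in late cells) in 6 to 8 h cells (course, adjusted p = 0.0591). Kif22, which pushes on chromosome arms, was at 0 to 237 TPM (median 44.6) in newborn, 0 to 325 TPM (median 99.3) in mid and 50 to 389 TPM (median 145, and 193 in late cells) in 6 to 8 h CD8+ T-cells. Kif20b, a motor of the midzone, was at 0 to 25.3 TPM (median 2.33) in newborn, 0 to 83.1 TPM (median 14.3) in mid and 0.77 to 56 TPM (median 17.5, and 23.7 in late cells) in 6 to 8 h CD8+ T-cells. Its level was 0 to 27.5 TPM (median 7.96) in newborn, 0 to 34.8 TPM (median 3.81) in mid and 0 to 64.2 TPM (median 16.9, and 16 at 6 to 8 h) in late L1210 cells. The lowest newborn and mid cells of both genes were at 0, and the ranges overlapped. In L1210 cells Kif20a, which the cell needs for cytokinesis, was at 26.8 to 154 TPM (median 60.1) in newborn, 0 to 103.8 TPM (median 30.4) in mid and 0 to 174 TPM (median 42.2, and 45.2 at 6 to 8 h) in late cells (newborn minus mid 1.60 ± 0.63, unadjusted p = 0.0129, adjusted p = 1). Every newborn L1210 cell held at least 26.8 TPM of it, while the lowest mid cell was at 0. Kif11, which slides spindle poles apart, was at 0 to 33.5 TPM (median 13.2) in newborn, 0 to 33.4 TPM (median 8.57) in mid and 9.04 to 183 TPM (median 32.7, and 19.9 in late cells) in 6 to 8 h L1210 cells. Kif23, Kif2c and Kif4 passed no test either. All 8 kinesins had a higher fitted level in newborn than in mid L1210 cells, while 6 of 8 had a lower one in CD8+ T-cells. These are counts of signs, and no difference behind them was called. With mid cells from 4 h on, a choice made after seeing the data, Kif11 (-0.62), Kif20b (-0.62) and Kifc1 (-0.63) were lower in newborn L1210 cells. Kif20a, Kif22, Kif23, Kif2c and Kif4 stayed higher.

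At the kinetochore and centromere, Cenpf and Spc25 changed over time in CD8+ T-cells. Spc25, a subunit of the Ndc80 complex that holds microtubules, was at 0 to 105.2 TPM (median 4.85) in newborn, 0 to 386 TPM (median 63.5) in mid and 17.1 to 575 TPM (median 152, and 109.8 at 6 to 8 h) in late cells (course, adjusted p = 0.021). It was above 0 in 8 of 14 newborn CD8+ T-cells with a newborn minus mid difference of -2.93 ± 0.61 (adjusted p = 0.00579). In L1210 cells it was above 0 in all 15 newborn cells, at 18.8 to 125 TPM (median 41.8), and at 0 to 86.7 TPM (median 28.2, 95.5 at 6 to 8 h and 66 in late cells) in mid cells. Ndc80 itself was at 0 to 129 TPM (median 1.51) in newborn and 0 to 436 TPM (median 40.3, 71.8 at 6 to 8 h and 36.6 in late cells) in mid CD8+ T-cells (newborn minus mid, adjusted p = 0.111). Nuf2, its direct partner, had medians of 54.6, 33.2, 78.9 and 64.4 TPM over the 4 windows and passed no test. Cenpf, a large protein of the outer kinetochore, was at 0 to 36.7 TPM (median 2.37) in newborn, 0 to 27.2 TPM (median 4.68) in mid and 0 to 59.5 TPM (median 20.6, and 10.6 at 6 to 8 h) in late cells (course, adjusted p = 0.0128). Cenpa, the histone that marks centromeres, was at 46.8 to 538 TPM (median 262) in newborn and 0 to 487 TPM (median 136, 248 at 6 to 8 h and 393 in late cells) in mid CD8+ T-cells. The level of Cenpa was 91.2 to 359.5 TPM (median 215) and 0 to 378 TPM (median 156, 146 at 6 to 8 h and 149 in late cells) in the same windows of L1210 cells (newborn minus mid, adjusted p = 0.557 and 1). In L1210 cells Cenpf was at 0 to 23.2 TPM (median 9.01) in newborn, 0 to 11.6 TPM (median 3) in mid and 0 to 24.1 TPM (median 7.11, and 8.57 at 6 to 8 h) in late cells. Cenpe, a kinesin of the kinetochore, was at 0 to 27.1 TPM (median 9.47) in newborn, 0 to 23.5 TPM (median 4.49) in mid and 0 to 54.7 TPM (median 11.4, and 16 at 6 to 8 h) in late L1210 cells and passed no test.

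The chromosomal passengers Birc5 and Cdca8, which target Aurkb to the centromere and midzone, passed no test over time in either type. Birc5 was at 126 to 677 TPM (median 410.3) in newborn, 88.9 to 2702 TPM (median 462) in mid and 31.8 to 2203 TPM (median 845, and 659 at 6 to 8 h) in late CD8+ T-cells, so the transcript of Birc5 was abundant in the same newborn cells in which that of its kinase Aurkb had a median of 7.19 TPM. In L1210 cells Birc5 was at 136 to 419 TPM (median 266) in newborn, 33.3 to 363 TPM (median 187) in mid and 0 to 519.8 TPM (median 304, and 304 at 6 to 8 h) in late cells, and both Birc5 and Cdca8 were at 0 in 5 of the 18 late cells. Cdca8 was at 121 to 330.5 TPM (median 182) in newborn, 8.59 to 281 TPM (median 147) in mid and 0 to 327 TPM (median 185, and 202 at 6 to 8 h) in late L1210 cells. In CD8+ T-cells Cdca8 was at 10.3 to 372 TPM (median 125) in newborn, 0 to 886 TPM (median 211) in mid and 12.5 to 857 TPM (median 362, and 301 at 6 to 8 h) in late cells. Late minus mid differences were -1.75 ± 0.53 and -1.70 ± 0.52 in L1210 cells (adjusted p = 0.208 for both).

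Among the 6 spindle assembly genes, Kpna2 and Prc1 had the lowest p of all members in the CD8+ T-cell course. Kpna2 was at 6.6 to 312 TPM (median 85.1) in newborn, 34.9 to 1183 TPM (median 464) in mid, 71.2 to 1526 TPM (median 748) in 6 to 8 h and 24.7 to 2047 TPM (median 1019) in late CD8+ T-cells (course, adjusted p = 8.77e-05). The newborn minus mid difference was -2.60 ± 0.41 (adjusted p = 3.96e-05). Prc1, which bundles the microtubules of the midzone, was at 0 to 83.6 TPM (median 0.335) in newborn, 0 to 309.6 TPM (median 69.2) in mid and 3.32 to 230.0 TPM (median 98.3, and 89.3 at 6 to 8 h) in late cells (course, adjusted p = 0.000768). It was at 0 in 7 of 14 newborn cells and in 2 of 54 mid cells, and the newborn minus mid difference of -4.09 ± 0.62 was the largest of the 47 (adjusted p = 1.78e-05). In L1210 cells Kpna2 was at 0 to 507 TPM (median 78.4) in newborn, 17.3 to 475 TPM (median 168) in mid and 251 to 715 TPM (median 581, and 442 in late cells) in 6 to 8 h cells (unadjusted course p = 0.00456, adjusted p = 0.925). Prc1 was at 0 to 207 TPM (median 14.7), 0 to 139.6 TPM (median 23.5) and 25.8 to 389 TPM (median 115, and 109 in late cells) in the same windows. Tpx2, the microtubule nucleator that Kpna2 carries, was at 40 to 245 TPM (median 110.0) in newborn and 11.5 to 132 TPM (median 64.2, 80 at 6 to 8 h and 92.7 in late cells) in mid L1210 cells (unadjusted course p = 0.002, adjusted p = 0.843). Nusap1, a microtubule stabilizer, was at 0 to 156 TPM (median 4.57) in newborn and 0 to 289 TPM (median 49.1, 116 at 6 to 8 h and 148 in late cells) in mid CD8+ T-cells (newborn minus mid, adjusted p = 0.0732). Hmmr and Fam83d passed no test. All 6 genes of this role were at an unadjusted course p under 0.05 in L1210 cells, though none passed after adjustment.

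For cytokinesis, none of Anln, Ect2, Racgap1 and Arhgef39 passed a test over time. Racgap1, which with Kif23 forms the centralspindlin complex, was at 43.4 to 153 TPM (median 89.9) in newborn and 0 to 167 TPM (median 56.5, 66 at 6 to 8 h and 92.5 in late cells) in mid L1210 cells. Racgap1 ranged over 0 to 436 TPM (median 71.8) and 0 to 361 TPM (median 96.6, 140.0 at 6 to 8 h and 114 in late cells) in CD8+ T-cells. Ect2, the exchange factor that turns on the contractile ring, was at 0 to 64 TPM (median 15.9) in newborn and 0 to 34.5 TPM (median 9.47, 23.1 at 6 to 8 h and 16.3 in late cells) in mid L1210 cells (newborn minus mid 1.26 ± 0.60, unadjusted p = 0.0376, adjusted p = 1). In CD8+ T-cells Ect2 was at 0 to 89.5 TPM (median 11.5) in newborn, 0 to 57.2 TPM (median 11.1) in mid and 0 to 16.1 TPM (median 4.94, and 14.8 at 6 to 8 h) in late cells. Arhgef39, another exchange factor, was at 0 to 105.1 TPM (median 24.7) in newborn, 0 to 93.4 TPM (median 16.8) in mid and 12.4 to 292 TPM (median 56.3, and 38.2 in late cells) in 6 to 8 h L1210 cells. Arhgef39 ranged over 0 to 82.1 TPM (median 0) in newborn, 0 to 76.7 TPM (median 6.62) in mid and 0 to 185 TPM (median 0, and 32.6 in late cells) in 6 to 8 h CD8+ T-cells.

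For chromosome structure, Top2a, the topoisomerase that untangles sister chromatids, was at 0.37 to 107 TPM (median 42.8) in newborn, 27.1 to 582 TPM (median 117) in mid and 17.2 to 191 TPM (median 148, and 134 at 6 to 8 h) in late CD8+ T-cells (course, adjusted p = 0.00491). Its newborn minus mid difference was -2.24 ± 0.43 (adjusted p = 0.00161) and it rose by 0.95 ± 0.22 per hour over the first 4 h (adjusted p = 0.0442). In L1210 cells Top2a was at 0 to 149 TPM (median 23.6) in newborn, 0.52 to 152 TPM (median 25.8) in mid and 59.3 to 321 TPM (median 137, and 98.6 in late cells) in 6 to 8 h cells. Mki67, the proliferation marker that coats mitotic chromosomes, was at 2.56 to 182 TPM (median 28.9) in newborn and 0.6 to 208 TPM (median 41, 36.7 at 6 to 8 h and 25 in late cells) in mid CD8+ T-cells. Mki67 ranged over 6.3 to 63.7 TPM (median 31.3) in newborn, 0 to 46.4 TPM (median 17.5) in mid and 0 to 44.6 TPM (median 22.9, and 29.2 in late cells) in 6 to 8 h L1210 cells. It passed no test over time. Of the members outside these roles, Cdca3, Depdc1a, Depdc1b and Hyls1, none passed either. Cdca3, a trigger of mitotic entry, was at 8.09 to 191 TPM (median 131) in newborn, 0 to 469 TPM (median 122) in mid and 47.8 to 639.6 TPM (median 308, and 155 at 6 to 8 h) in late CD8+ T-cells. Depdc1a was at 0 to 27.8 TPM (median 9.6) in newborn, 0 to 25.8 TPM (median 1.5) in mid and 0 to 86.2 TPM (median 10.2, and 9.27 at 6 to 8 h) in late L1210 cells. Depdc1b was at 0 to 37.8 TPM (median 0) in newborn, 0 to 35.1 TPM (median 0) in mid and 0 to 51.4 TPM (median 0, and 5.3 at 6 to 8 h) in late L1210 cells. Depdc1b ranged over 0 to 19.2 TPM (median 0) in newborn, 0 to 178 TPM (median 2.15) in mid and 0 to 143 TPM (median 22.6, and 19.3 at 6 to 8 h) in late CD8+ T-cells. Both Depdc1 genes were at 0 in the lowest cell of the mid window. Hyls1, a centriole protein, had the lowest unadjusted course p of the members in L1210 cells (0.000134, adjusted p = 0.283), being above 0 in 11 of 38 mid and 12 of 18 late cells. It was at 0 to 30.7 TPM (median 0) in newborn, 0 to 29.3 TPM (median 0) in mid and 0 to 66.2 TPM (median 12.2, and 7.74 at 6 to 8 h) in late L1210 cells. It was at 0 to 1.4 TPM (median 0) in newborn, 0 to 97.2 TPM (median 4.57) in mid and 0 to 60.8 TPM (median 14.2, and 0.72 at 6 to 8 h) in late CD8+ T-cells.

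The contrast of newborn and mid cells was then set side by side for both types, to show which messages stood higher right after division. In L1210 cells 42 of 47 members had a higher fitted level in newborn than in mid cells, with a median difference of 0.70 against 0.05 over all 10536 genes. In CD8+ T-cells 35 of 47 had a lower one, with a median of -0.66 against -0.04 over all 9997 genes. The 12 that were higher in newborn CD8+ T-cells included Ccnb2, Cdc20, Nek2, Cenpa and Bub1b, the 5 with the largest positive differences, from 1.05 to 2.05. A joint fit of both types tested the difference between these contrasts. Prc1 (CD8+ minus L1210, -4.80 ± 1.00, adjusted p = 0.0179) and Spc25 (-4.38 ± 0.93, adjusted p = 0.0181) passed, 2 of the 3 genes called among 11373 (0.0264%), and 41 of 47 differences were negative. Neither call held without each of its lineages. Leaving out any 1 of 4 lineages with newborn cells (CD8+ lineages 36 and 71, L1210 lineages 11 and 34) left neither, and leaving out CD8+ lineage 69 left only Prc1. Neither was called either when mid cells were taken from 4 h on (16 L1210 cells and 27 CD8+ T-cells, a choice made after seeing the data), which in CD8+ T-cells alone called 8 members, Ccnb2 among them as higher in newborn cells (1.77 ± 0.41, adjusted p = 0.0273). These 8 are a count of members alone, with no share of all genes beside it. Of the 38 mid L1210 cells, 18 were under 3 h. With mid cells from 4 h on, the L1210 newborn minus mid differences of Cdk1 (-0.87 ± 1.00) and Ccnf (-0.47 ± 0.93) turned negative. Also below 0 with this window were Aurka, Aurkb, Fzr1, Kif11, Kif20b, Kifc1, Ndc80, Prc1, Fam83d, Kpna2, Anln, Top2a and Depdc1b. The remaining members were above 0, among them Kif20a (2.71 ± 0.82) and Plk1 (2.02 ± 0.97). None of these differences was called. The direction in L1210 cells, and with it the count of 42 of 47, therefore depends for some members on the mid window. The contrast in CD8+ T-cells alone gave 3 to 11 called members when each of its 6 newborn lineages was left out in turn, 3 without lineage 71, 4 without lineage 36 and 11 without lineage 77, and the course gave 9 to 12. The corresponding test of late minus mid cells called 0 members (6 of 11373 genes, 0.0528%, 0.044% higher and 0.00879% lower, with 5 members and 8.59% of all genes at an unadjusted p under 0.05).

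**Figure D4:**
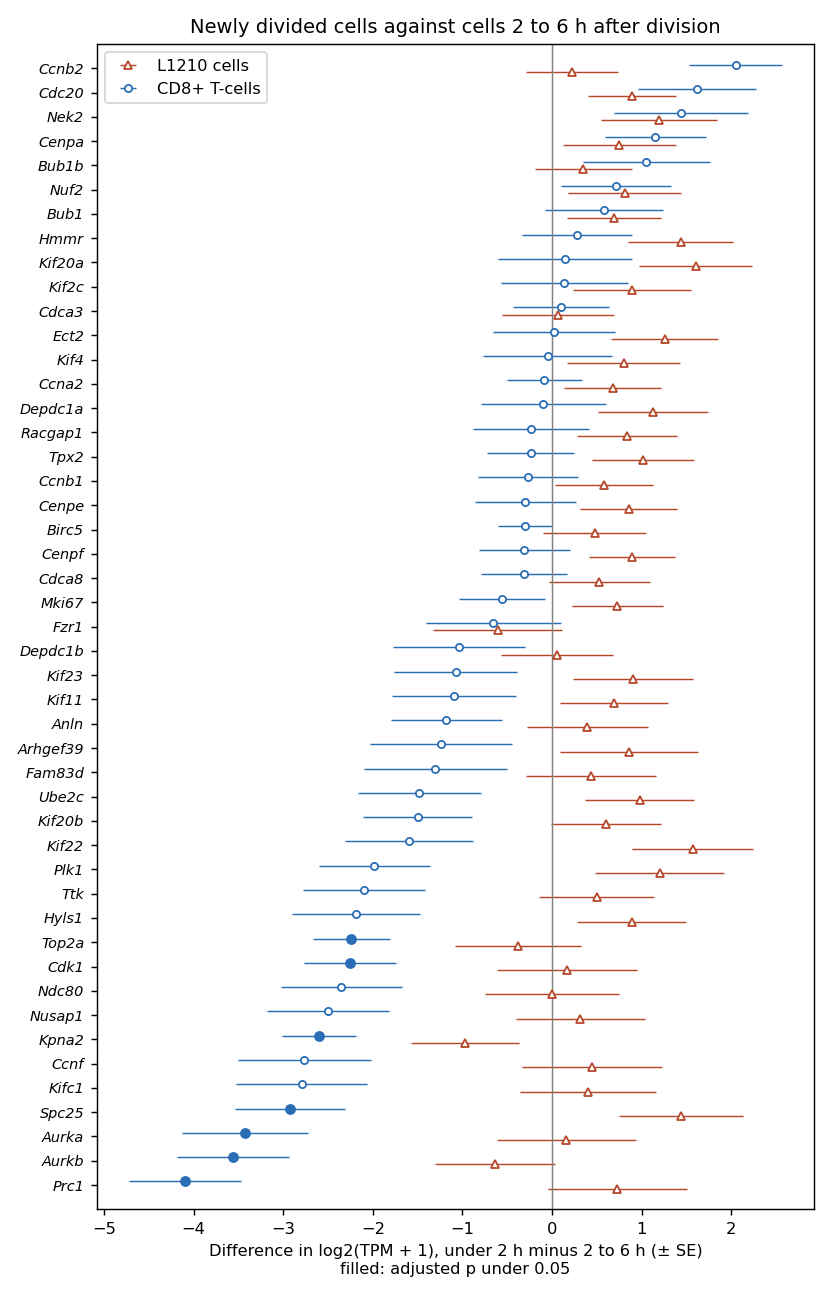
Difference in log2(TPM + 1) between cells under 2 h and cells 2 to 6 h after division (x axis, ± SE) for the 47 genes (y axis, ordered by the CD8+ T-cell value), L1210 cells as triangles and CD8+ T-cells as circles, filled where the adjusted p is under 0.05. The 7 filled circles all lie below 0, from -4.09 for Prc1 to -2.24 for Top2a, and most L1210 triangles lie above 0.

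Some L1210 lineages of like age held unlike levels. Among the newborn L1210 cells, all 4 cells of lineage 11 (0.35 to 1.79 h) held 339 to 507 TPM of Kpna2 and 100.9 to 149 TPM of Top2a. Among the older cells, lineages 9 and 53 at 4.38 to 5.22 h held 347 to 475 and 407 to 454 TPM of Kpna2. All 16 L1210 cells of 4 to under 6 h, these lineages included, held 141 to 475 TPM of Kpna2 (median 358). Newborn cells of lineages 7 and 10 held 13.8 to 57.98 TPM of Kpna2, and those of lineages 6 and 34 held 0 to 344.8 TPM. Cells of lineage 11 had 9380 to 10427 genes above 0 TPM, and those of lineages 7 and 10 had 7519 to 8185. The ribosomal RNA gene Rn45s took 11.4 to 14.7% of the TPM in lineage 11, 13.5 to 17% in lineage 9 and 15.6 to 21.9% in lineage 53. In the newborn cells of lineages 7 and 10 it took 21.1 to 26.6% and 24.8 to 25.5%, and the part of these numbers in the levels was not tested. To ask whether relatives agreed beyond time, lineage was tested as a factor in a fit that also held the spline of hours. Cells of a lineage came from the same lane of the device, so device run and lineage cannot be told apart. In L1210 cells 33 of 47 members differed between lineages, where 9.28% of 10536 genes did, and in CD8+ T-cells 10 of 47, where 7.45% of 9997 did. Plk1 led the members in both types (adjusted p = 4.66e-05 and 0.00151). In L1210 cells Ccnb1, Birc5, Ube2c and Cdca8 followed (adjusted p from 5.46e-05 to 8.99e-05), and the 14 members not called included Ccnb2, Aurka, Aurkb, Kpna2, Cdca3 and Ect2. In CD8+ T-cells the other called members were Bub1b, Kpna2, Ube2c, Aurka, Prc1, Nusap1, Depdc1b, Spc25 and Top2a. With the number of genes above 0 TPM as a covariate, 14 of 47 members were called in L1210 cells, where 326 of all 10536 genes were, down from 978. Normal scores of ranks in place of log2(TPM + 1) gave 9 of 47 members and 853 genes. Leaving out lineage 11 gave 23 members and 567 genes. Within lineages, the test of a difference between the sister pairs of a lineage called no member in either type (0 of 47, against 0.0569% of 10536 and 0.03% of 9997 genes). At an unadjusted p under 0.05 stood 12 and 7 members, against 7.15 and 6.48% of all genes. In L1210 cells the test called 2 members, among 26 genes, without cell 15, a cell of 1610 genes above 0, and 7 members, among 153 genes, in cells with 4000 or more genes.

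Relatives were also compared by distance. For each gene the absolute difference in log2(TPM + 1) was averaged over 38 sister pairs of L1210 cells and 43 of CD8+ T-cells, and over unrelated pairs whose times since division differed by less than 1 h (489 and 979). The match in time was not equal. Sisters were a median of 0.033 h apart in L1210 cells and 0.044 h in CD8+ T-cells, and these unrelated pairs 0.467 and 0.525 h. The part of this gap in the distances was not tested. Sisters lay closer than unrelated cells for 46 of 47 members in L1210 cells, against 65.4% of all genes. They did so for 40 of 47 in CD8+ T-cells, against 69.6%. The median sister distance was 78.3% of the unrelated one over the members in L1210 cells (60.6 to 120%) and 86.5% in CD8+ T-cells (69.5 to 114%), against 93.7 and 93.1% over all genes. Nek2 in L1210 cells had the smallest share, with sister distance 1.28 and unrelated distance 2.11, and Bub1b in CD8+ T-cells, with 1.85 and 2.66. Prc1 was among the 3 closest in both types (60.9 and 71.4%). Cdca3 in L1210 cells and Ttk in CD8+ T-cells lay farther apart in sisters than in unrelated cells (120.3 and 114%). Cousins matched in the same way (38 and 70 pairs) were at a median of 91.3% in L1210 cells and 93.98% in CD8+ T-cells, against 95.6 and 93.7% over all genes, which in CD8+ T-cells is about the same share. They lay closer than unrelated cells for 33 of 47 members in L1210 cells and 32 in CD8+ T-cells. Sisters lay closer than cousins, of whatever time, for 34 and 29 members. The share of all genes was not computed for these counts with cousins, so they show no trait of the members. The pairs share cells and time, and these shares carry no test.

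**Figure D5:**
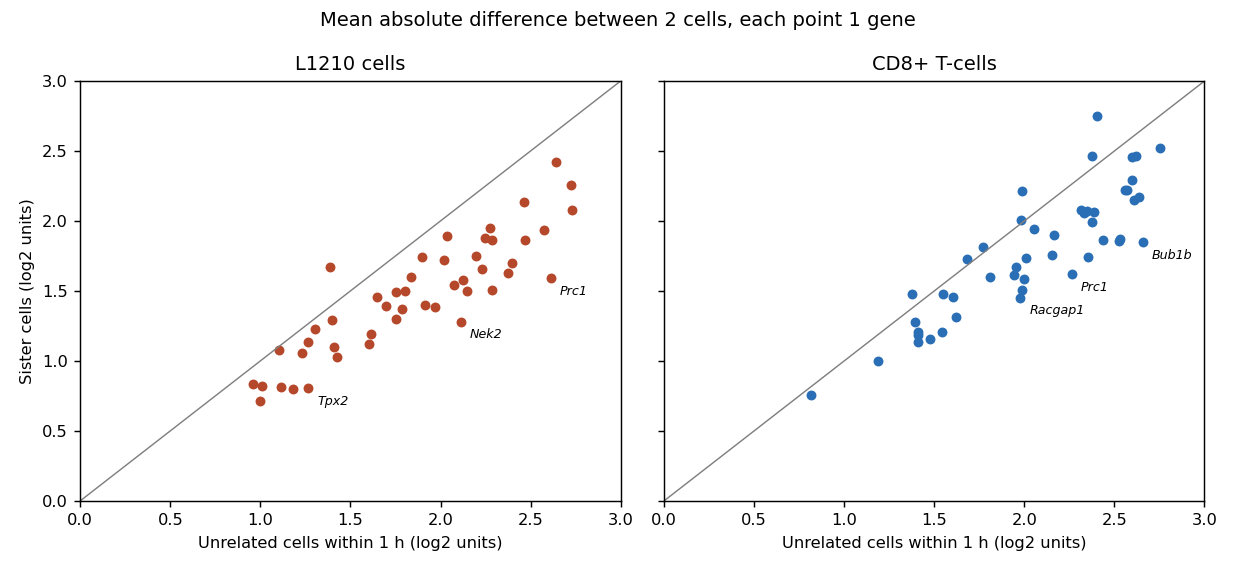
Mean absolute difference in log2(TPM + 1) between sisters (y axis) against that between unrelated cells whose times since division differ by less than 1 h (x axis), each point 1 of the 47 genes, with the line of equality; the 3 genes with the smallest ratio are named. In L1210 cells 46 of 47 points lie below the line, and in CD8+ T-cells 40 of 47.

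Over the mean level of the whole set, sisters differed by a median of 0.36 in L1210 cells and 0.60 in CD8+ T-cells. The gap was under 1 in 31 of 38 L1210 pairs and 27 of 43 CD8+ pairs, and over 2 in 3 and 5 pairs. The widest L1210 gaps were those of cells 15 and 3 (1.00 against 6.02), cells 77 and 87 (6.82 against 4.13) and cells 26 and 37 (4.38 against 6.58). Cell 15 had 1610 genes above 0 TPM, cell 26 had 2747 and cell 87 had 5734, where their sisters had 8245, 8762 and 8780. Rn45s took 55.5% of the TPM in cell 15 and 19.9% in cell 3. The widest CD8+ gap, between cells 96 and 98 at 3.63 h, was 6.402 against 2.41, with 8541 and 4595 genes above 0. Cell 7, with 2985 genes, stood at 2.21 against 5.57 in its sister, cell 6. In each of these 5 pairs the lower cell had fewer genes above 0, and the part of that number or of Rn45s in the gaps was not tested.

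The members varied together from cell to cell. The correlations are given as a description, across cells that share lineages and differ in genes above 0. No correlation over other sets of genes was computed beside them, so they show no trait of the members. The correlation of a member with the mean of the other 46 ran from 0.43 to 0.82 in the 81 L1210 cells (median 0.67) and from 0.21 to 0.73 in the 97 CD8+ T-cells (median 0.61). Ccnb1 had the highest value in L1210 cells (0.82) and Aurka in CD8+ T-cells (0.73). The lowest in CD8+ T-cells was that of Ccnb2 (0.21), followed by Birc5 (0.27) and Cenpa (0.29).

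Within the window of 2 to 6 h, CD8+ T-cells and L1210 cells differed for 23 of 47 members, 20 higher in CD8+ T-cells and 3 lower, where 50.6% of 11373 genes differed, 10.6% higher and 40% lower. The median difference was 0.91 over the members and -0.59 over all genes. Nusap1 (CD8+ minus L1210, 3.20 ± 0.50, adjusted p = 1.82e-08) and Top2a (2.34 ± 0.41, adjusted p = 3.87e-07) had the largest differences, with mid medians of 49.1 against 2.48 and 117 against 25.8 TPM. The 3 that were lower in CD8+ T-cells were Bub1b (-1.52 ± 0.46), Cdc20 (-1.30 ± 0.43) and Bub1 (-1.04 ± 0.43), with adjusted p of 0.00328, 0.00812 and 0.0336. Bub1 and Bub1b are spindle checkpoint kinases and Cdc20 is the target of that checkpoint. Mid L1210 cells had a median of 8289.5 genes above 0 TPM and mid CD8+ T-cells 7316.5. With that number as a covariate, 35 of 47 members were called, all 35 higher in CD8+ T-cells, and Bub1b and Cdc20 were not called (adjusted p = 0.138 and 0.203). Of all genes 1806 were then higher and 2918 lower, where 1208 and 4546 were without it, and their median difference was -0.20. The types filled the window unevenly, with 18 of 38 L1210 cells and 9 of 54 CD8+ T-cells under 3 h. When only cells from 4 h on were kept (16 and 27), 8 members were called, all 8 higher in CD8+ T-cells, where 29.3% of all 11373 genes were called, 728 higher and 2599 lower. The 8 were Nusap1 (3.36 ± 0.79), Kif22, Kif20a, Ndc80, Plk1, Racgap1, Mki67 and Birc5, with adjusted p from 0.000425 to 0.0478. Top2a was not called (1.08 ± 0.63, adjusted p = 0.19), with medians of 131 TPM in CD8+ T-cells and 87.4 TPM in L1210 cells at 4 to 6 h, and of 111 and 9.5 TPM at 2 to 4 h. The sign of Cdc20 turned (0.37 ± 0.57, adjusted p = 0.654), with medians of 275 and 209 TPM at 4 to 6 h and of 78.5 and 332 TPM at 2 to 4 h. Neither Bub1 (-1.08 ± 0.65) nor Bub1b (-0.87 ± 0.71) was called from 4 h on (adjusted p = 0.21 and 0.377). The cell types also differ in strain, origin and activation, and these cannot be told apart here.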

How the data were processed

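Single-cell RNA-seq was measured in 194 libraries, 88 of L1210 cells and 106 of CD8+ T-cells, 1 cell (or doublet) each. Per the labels, the authors aligned reads to mm10 with TopHat2 and estimated expression with RSEM 1.2.3, and they deposited TPM, which sum to 1000000 per library and keep no read depth. Groups, hours since division and kinship were taken from the sample labels, and 4 cousin labels that were not reciprocated were placed by the labels of the other cells. Doublets and cells with under 1000 genes above 0 TPM were left out. Values were analysed as log2(TPM + 1) for genes with ln(TPM + 1) above 1 in more than 10% of cells, with limma 3.58.1 (R 4.3.3, statmod 1.5.0) and its variance trend, lineage entering as a correlated block (estimated correlation 0.08 to 0.10) except where lineage was tested. P-values were adjusted by Benjamini-Hochberg over all genes tested. The fits were tested on simulated data. For the tests over time these data held a correlation within lineages and no added likeness of sisters. They therefore do not show how these tests behave where sisters are more alike. Tables and plots used Python 3.11.15, pandas 2.3.3, numpy 2.4.6 and matplotlib 3.10.9.

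Alternatives covered the pseudocount, both filters, rRNA, detected genes as a covariate, the block, the windows (mid cells from 4 h added after seeing the data), ranks and single lineages left out. Values were given in full for up to 3 members per role with the lowest course p in each type. The members and lists were chosen with earlier results of these data known. Cells of a lineage are not independent cultures, so p-values measure the spread between these cells and lineages. Each fit used the same correlation for every gene. Between sisters the correlation, not corrected for time, had a median of 0.39 over the members in L1210 cells and 0.25 in CD8+ T-cells. In CD8+ T-cells it was 0.64 for Prc1, 0.60 for Kpna2 and 0.51 for Top2a. Standard errors and p-values over time may therefore be too small for such members.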

Additional observations from a re-analysis of the deposited data

Results flagged for a closer look

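In groups of 4 to 10 cells or lineage means, 81 sets of values were searched for a value far from the rest, and 29 were found. Most sets are genes in the same cells, so they are not independent and no rate by chance is set beside the 29. In late CD8+ T-cells, 14 of the 15 lay in cell 7, which had 2985 genes above 0 TPM. That cell was the lowest of 7 for Ccna2 (7.13 TPM), Ccnb2 (13.2), Cdk1 (10.5), Aurka (21.2), Ube2c (11.1), Birc5 (31.8), Nusap1 (7), Prc1 (3.32), Kpna2 (24.7) and Top2a (17.2), and it was at 0 for Cdc20, Cenpa, Cenpe and Cenpf. The remaining one was Plk1 in cell 1, at 2.33 TPM. In L1210 cells 6 to 8 h after division, cell 26, with 2747 genes above 0 TPM, was lowest for Ccna2 (36.5 TPM) and at 0 for Cdk1, Plk1, Kif20a, Racgap1, Mki67 and Cdca3, and it was highest for Kif11 (183 TPM) and Cenpe (67.7 TPM). Cell 68 was lowest for Ccnb2 (3.28 TPM), Cenpa (7.63 TPM) and Fzr1 (0), and cell 60 for Aurkb (51.5 TPM) and Ndc80 (0). The part of the low gene numbers in these values was not tested.

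The newborn minus mid difference was lower in CD8+ T-cells than in L1210 cells for Prc1 (-4.80) and Spc25 (-4.38), by the test of that difference in the joint fit. Neither was called with a pseudocount of 10 TPM, with newborn cells under 1.5 h, with mid cells from 4 h on, with normal scores of ranks, or without any 1 of CD8+ lineages 36 and 71 and L1210 lineages 11 and 34.

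Libraries outside the comparisons also held these transcripts. The mean log2(TPM + 1) of the 47 genes was 1.62 and 2.79 in the L1210 doublets 48 and 50, and 4.59, 5.50, 5.39 and 5.20 in the CD8+ doublets 43, 46, 63 and 64. In the 3 CD8+ T-cells without a labelled time (80, 81 and 82) it was 5.71, 3.15 and 2.49.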

How the results depend on the processing

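The difference between CD8+ and L1210 mid cells reversed for Cdc20 (0.37) and Kif11 (-0.071) when mid cells were taken from 4 h on, added after seeing the data, which called 8 members there and 0 for the newborn difference between types. Among the members given in full, no other called difference reversed under an alternative. Signs were not compared for the other members or with normal scores of ranks. Counts of called members that moved by over 1.5 times, or to or from 0, were these. They are counts of members alone. The number of all genes called can shift in the same fits, so they do not show that members moved more than other genes. With the number of genes above 0 TPM as a covariate, L1210 cells gave 3 for the course, 1 for late minus mid and 14 for lineage, CD8+ T-cells gave 11 for newborn minus mid and 5 for the slope, and mid CD8+ against mid L1210 cells gave 35. A pseudocount of 10 TPM gave 1 for the L1210 course, 1 for late minus mid and 5 for the slope in CD8+ T-cells, and 0 for the newborn difference between types. Cells with 4000 or more genes gave 2 for the L1210 course and 7 for its sister pairs, which gave 2 without L1210 cell 15. Without the lineage block CD8+ T-cells gave 17 for the course, 12 for newborn minus mid and 5 for the slope. Newborn cells under 1.5 h gave 4 in CD8+ T-cells and 0 for the difference between types. The CD8+ lineage test gave 6 with no filter and 19 without time in the fit. Normal scores of ranks, added after seeing the data, gave 9 for lineage in L1210 cells, and in CD8+ T-cells 7 for the course, 2 for newborn minus mid and 5 for the slope, and 0 for the difference between types. Leaving out single lineages, also added after seeing the data, gave 3 to 11 for newborn minus mid in CD8+ T-cells and 0 to 2 for the difference between types.

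Library numbers shared by both types name libraries and pair no cells. With the number as a block (replicate block), 2, 0 and 25 members were called for the newborn difference, the late difference and mid cells. TPM keep no depth, so a value of 0 carries no counting limit, and late CD8+ T-cells came from 2 lineages.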

Other observations

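A wider list of 96 other genes of G2 and mitosis was examined in the same fits. In CD8+ T-cells 5 of 96 changed over time, where 0.74% of all genes did. They were Tubb4b, a beta-tubulin (adjusted p = 0.00439 in limma), Smc4, a condensin subunit (0.00855), Esco2, which acetylates cohesin (0.0154), Knstrn, a kinetochore protein (0.021), and Calm2, a calmodulin (0.0245). In L1210 cells 0 of 96 did, with 9 at an unadjusted p under 0.05, and the lowest of these was Dlgap5 (0.00585, adjusted p = 0.96 in limma), a spindle protein. Between lineages 21 of 96 differed in L1210 cells, where 9.28% of all genes did, and 9 in CD8+ T-cells, where 7.45% did. Newborn minus mid differences had a median of 0.37 in L1210 cells, with 69 of 96 above 0, and of -0.58 in CD8+ T-cells, with 72 of 96 below 0. TTTGAA lay in 47.2% of the 72 promoters of this list that were matched, CCAAT in 63.9% and both in 36.1%.

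Some libraries left out for few genes held single members at high values. L1210 cell 83 (1.55 h, 801 genes above 0) had 1336 TPM of Cdc20 and 0 of Kpna2, and L1210 cell 88 (12.8 h, 745 genes) had 0 of Cdc20 and 1378 TPM of Kpna2.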
